A study of Homo sapiens with 12 samples.

Results

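The comparison was of HCT116 cells that kept only the mutant allele of a PI3K catalytic subunit, H1047R by the labels (mutant-only). They were set against HCT116 cells in which the wild-type allele alone was left (wild-type-only). The comparison rests on 6 of the 12 arrays of the series, chosen by their labels, with 3 arrays of each genotype. All 18377 genes with 1 gene symbol were described, each by 1 probe set, the one with the highest mean over the 12 arrays. HCT116 is an epithelial line from a human colorectal cancer. The series also holds mutant-only and wild-type-only cells of DLD1, another colorectal cancer line. Its mutant allele of the same gene is a different one, E545K by the labels. Each genotype was 1 line derived by gene targeting, so that genotype and derived line cannot be told apart. Both genotypes were held for 19 h in McCoy's medium with 0.5% serum before RNA was taken, and the labels call the 3 arrays of a group biological replicates. What separated those replicates is not given in the sources used here, and the p-values measure only the spread between these samples.

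PI3K phosphorylates an inositol lipid of the plasma membrane, and the product recruits AKT and other kinases that promote growth, survival and nutrient uptake. Growth factor receptors switch the kinase on through its regulatory subunits, and inositol lipid phosphatases take the signal away. In colorectal cancers an activating mutation of the catalytic subunit gives a signal that depends less on growth factors, which is why such cells are often studied in low serum.

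Values are log2 signals of Affymetrix human gene arrays. A change is the mean of the mutant-only arrays minus that of the wild-type-only arrays, given on the log2 scale or as a fold, and its standard error (SE) comes from a limma model of all 12 arrays. A gene was called when its p-value, adjusted over all genes by the Benjamini-Hochberg method, was under 0.05. Of all genes 6.16% were called: 738 genes, or 4.02%, higher and 394 genes, or 2.14%, lower in mutant-only cells. The median change over all genes was -0.001. With the replicate number as a block 9.84% were called, 1185 higher and 623 lower, and 1122 genes were called in both fits. Fewer were called, 681, when mutant-only replicate 1 was left out, 694 without wild-type-only replicate 1 and 665 in a model of only the 6 HCT116 arrays. It was 231 and 425 without the arrays numbered 1 and the arrays numbered 2 of all groups. The 3 arrays of one genotype lay outside the range of the other for 22% of genes. Array medians were 7.49 to 7.53. Correlations across transcript clusters, which are not independent replicates, were 0.9956 to 0.9980 within a genotype and 0.9925 to 0.9966 between the genotypes.

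The arrays carried the markers of an epithelial line. The mean signal of 10 epithelial markers was 10.9 to 11 on the arrays of both genotypes. The mean of 10 fibroblast markers was 6.32 to 6.37 on mutant-only and 6.35 to 6.41 on wild-type-only arrays. For 9 immune markers it was 6.67 to 6.71 on mutant-only and 6.68 to 6.73 on wild-type-only arrays, and for 10 endothelial markers 6.51 to 6.59 on mutant-only and 6.56 to 6.65 on wild-type-only arrays. No marker of the last 3 lists was called in limma or with the block described above, 0, 0 and 1 had an unadjusted p under 0.05, and which of these signals lay above background was not assessed. Of the epithelial markers 2 were called higher and 1 lower. Those calls are not described further, since the list had no call left when mutant-only replicate 2 was omitted, or wild-type-only replicate 3, and 1 call when mutant-only replicate 1, wild-type-only replicate 1 or wild-type-only replicate 2 was.

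Below the 8 largest rises, the next 12 included regulators that act near PI3K. PIK3R3 (transcript cluster 7915787), a regulatory subunit of PI3K, had 8.27, 8.19 and 8.26 on the mutant-only arrays, against 6.94, 6.77 and 7.06 on the wild-type-only arrays. LRIG1 (8088642), a membrane protein that restrains receptors of the EGF receptor family, had 8.16, 8.13 and 8.13 in mutant-only cells, against 6.74, 6.92 and 7.01 in wild-type-only cells. PRKAA2 (7901720), a catalytic subunit of the energy sensor AMPK, had 6.99, 6.95 and 6.92 in mutant-only cells, against 5.69, 5.74 and 5.65 in wild-type-only cells. Genes of this tier were taken only from those whose genotypes did not overlap, so the separation of their arrays follows from that choice. PIK3R3 was 2.49-fold higher (log2 change 1.32, SE 0.0717, adjusted p = 1.01e-07), LRIG1 2.37-fold and PRKAA2 2.39-fold (adjusted p = 4.24e-09). PRKAA2 had a low signal throughout, in the lowest of 5 equal groups of genes by mean signal.

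Other genes of that tier act outside the cell, in lipid binding or on RNA. TNFSF18 (7922337), the ligand of the T cell receptor GITR, had 8.50, 8.33 and 8.99 in mutant-only cells, against 7.10, 6.98 and 7.52 in wild-type-only cells. FABP6 (8109629), the bile acid binding protein of the ileum, had 10.22, 10.17 and 10.00 in mutant-only cells, against 8.65, 8.78 and 8.79 in wild-type-only cells. Replicate 3 had the highest value of TNFSF18 in both genotypes. IGF2BP3 (8138566), an mRNA-binding protein of fetal tissues and tumours, had 10.61, 10.61 and 10.52 in mutant-only cells, against 9.12, 9.28 and 9.42 in wild-type-only cells. TNFSF18 was 2.66-fold higher (SE 0.155 on the log2 scale, adjusted p = 9.63e-05), FABP6 2.63-fold (adjusted p = 2.21e-07) and IGF2BP3 2.48-fold. RGS2, which speeds the shut-off of G protein signals, was 2.10-fold higher, at 10.39 ± 0.17 against 9.32 ± 0.09 (SD, n = 3). ZC4H2, a nuclear zinc finger protein, was 2.29-fold higher. TMSB15A, an actin-binding thymosin with close paralogs, varied most: it had 8.18, 8.65 and 7.32 in mutant-only cells, against 6.96, 6.95 and 6.72 in wild-type-only cells (adjusted p = 0.00786), and it was not called with the HCT116 arrays alone. The remaining 3 of the 12 were zinc finger genes.

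Among falls of matching rank were genes of adenosine, glutamate and lipid handling. NT5E (8120967), the cell-surface enzyme that makes adenosine from AMP, had 8.97, 8.63 and 8.85 in mutant-only cells, against 10.05, 9.82 and 10.00 in wild-type-only cells. SLC1A1 (8154135), a glutamate and aspartate transporter, had 8.84, 8.75 and 8.82 in mutant-only cells, against 9.87, 9.89 and 9.89 in wild-type-only cells. FAR2 (7954631), a fatty acyl-CoA reductase, had 8.36, 8.53 and 8.39 in mutant-only cells, against 9.60, 9.75 and 9.73 in wild-type-only cells. The falls of this tier, too, were taken only from genes whose genotypes did not overlap. FAR2 was 2.41-fold lower (log2 change -1.27, SE 0.0703, adjusted p = 1.11e-07), NT5E 2.21-fold and SLC1A1 2.11-fold. ACSL5, which activates long-chain fatty acids, was 1.85-fold lower in mutant-only cells, at 11.67 ± 0.11 against 12.56 ± 0.06 (SD, n = 3).

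Several transcription and calcium regulators stood in the same tier. MEF2C (8113039), a transcription factor of muscle, nerve and blood cells, had 10.25, 10.37 and 9.85 in mutant-only cells, against 11.25, 11.27 and 10.94 in wild-type-only cells. BMAL1 (7938563), a core factor of the circadian clock, had 8.21, 7.72 and 8.06 in mutant-only cells, against 9.25, 8.55 and 9.04 in wild-type-only cells. Replicate 2 was the lowest array of each genotype for BMAL1, and replicate 3 for MEF2C. MEF2C was 1.99-fold lower (adjusted p = 0.000174) and BMAL1 1.93-fold lower (adjusted p = 0.00401, with an SE of 0.168 in log2). VSNL1, a neuronal calcium sensor, was 1.94-fold lower, ANKRD29, an ankyrin repeat protein, 2.18-fold, SYTL5, a synaptotagmin-like protein of vesicle traffic, 2.0-fold, and MOSPD1 1.99-fold. ZNF426 and ZNF280A complete the 12. The calls of all 24 genes held without each HCT116 array in turn.

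**Figure D1:**
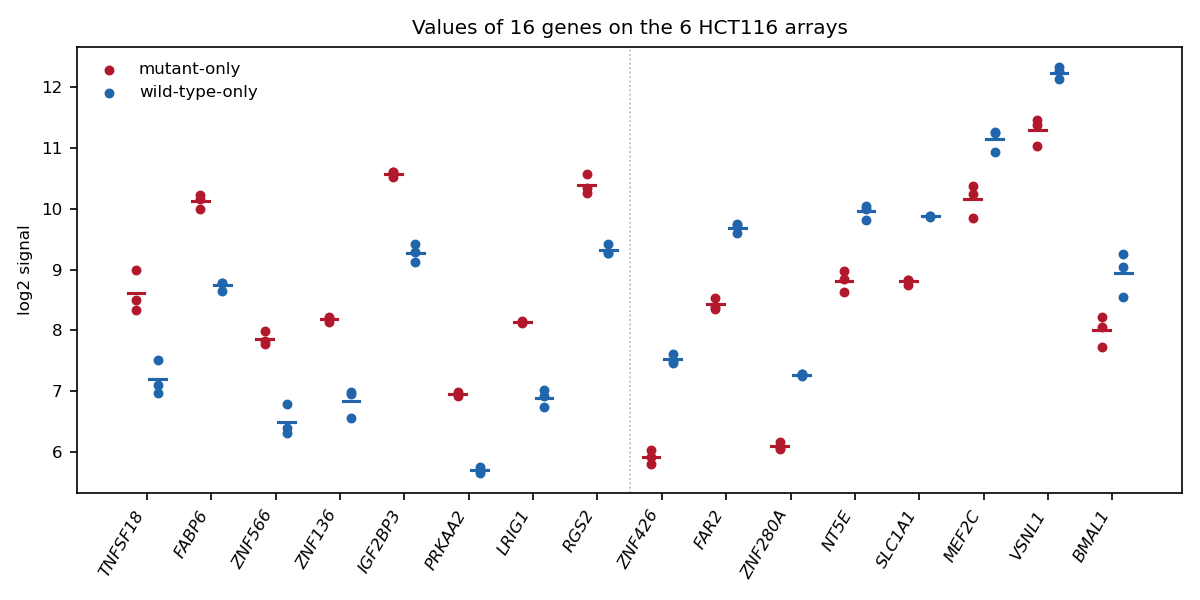
Log2 signals of 16 genes on the 6 HCT116 arrays; each point is 1 array, the bar is the mean of 3 arrays, and mutant-only arrays stand left of wild-type-only arrays. Left of the dotted line are rises and right of it falls, all taken from genes whose genotypes did not overlap. SLC1A1 and PRKAA2 show tight replicates, and TNFSF18 and BMAL1 wide ones.

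Enzymes that make and remove phosphoinositides changed at 6 of 38 measured genes, 5 higher and 1 lower, beside 6.16% of all genes, with a median change of 0.06. OCRL, an inositol lipid phosphatase of endosomes and the Golgi, had 9.85, 9.80 and 9.91 in mutant-only cells, against 9.37, 9.37 and 9.51 in wild-type-only cells. INPP5D, the phosphatase SHIP that acts on the product of PI3K, had 7.91, 7.90 and 8.12 in mutant-only cells, against 7.66, 7.5 and 7.47 in wild-type-only cells. OCRL and INPP5D were higher by 0.44 (adjusted p = 0.000765) and 0.43 (adjusted p = 0.00281). Neither overlapped between the genotypes, which largely follows from naming them as the leading called rises of the list. PIP4K2A, a kinase of another inositol lipid, had 10.11, 10.04 and 10.11 in mutant-only cells and 10.48, 10.51 and 10.38 in wild-type-only cells, 1.30-fold lower in mutant-only cells (adjusted p = 0.00695). The list holds the inositol polyphosphate phosphatases, myotubularins and phospholipases C.

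Zinc finger transcription factors were called at 60 genes, most of them higher in mutant-only cells. Of 525 measured genes with a ZNF, ZFP, ZSCAN or ZKSCAN symbol, 52 rose, 8 fell and 465 did not pass, or 11.4% called beside 6.16% of all genes. Most such proteins bind DNA through C2H2 fingers, and many carry a KRAB domain that recruits repressors. Their median change was 0.06 (0.05 after quantile normalization), and 355 of 525 lay above 0. With the replicate number as a block 87 rose and 8 fell. The count of calls was 37 without mutant-only replicate 1, 35 without wild-type-only replicate 1, and also 37 in a model of only the 6 HCT116 arrays. One of the falls is ZFP36, an mRNA decay factor whose fingers are of another kind. Many of these genes have near-identical paralogs, and probes shared between paralogs were not examined.

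Chromosome 19 holds many clusters of such genes. There 26 of 245 rose and 4 fell (12.2%), and on the other chromosomes 26 of 280 rose and 4 fell (10.7%), while 3.49% of the other genes of chromosome 19 were called. With the replicate number as a block 46 rose and 4 fell on chromosome 19, and 41 rose and 4 fell on the other chromosomes. Of the other genes of chromosome 19 the block called 42 higher and 17 lower. All genes were ranked by mean signal over the 12 arrays and split into 5 signal groups of equal size, 1 being the lowest. In signal groups 2, 3, 4 and 5, 16.2%, 11%, 15.4% and 23.8% of zinc finger genes were called, against 3.33%, 7.02%, 9.52% and 8.84% of the other genes in them. In signal group 1 the shares were 3.12% of zinc finger genes and 1.24% of the others. These shares carry no test, and signal group 5 has 21 zinc finger genes.

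Some leading members were called with a neighbour and others without. ZNF566 (8036318) on chromosome 19 had 7.99, 7.82 and 7.77 in mutant-only cells, against 6.31, 6.39 and 6.78 in wild-type-only cells (2.58-fold higher, adjusted p = 5.21e-06). ZNF136 (8025998), also on chromosome 19, had 8.14, 8.21 and 8.22 in mutant-only cells, against 6.55, 6.99 and 6.96 in wild-type-only cells (2.56-fold, adjusted p = 8.81e-07). ZNF850 had 7.84, 7.96 and 8.11 in mutant-only cells, against 6.83, 6.74 and 6.96 in wild-type-only cells (2.19-fold, adjusted p = 9.82e-07). These 3 belong to the tier taken only from genes whose genotypes did not overlap. In the order of genes, none of the 3 measured genes on either side of ZNF136 or ZNF850 was called, with changes of -0.11 to 0.14. Beside ZNF566 the call of ZFP14 (change 0.45), chosen after its value was seen, was lost without any HCT116 array except mutant-only replicate 2 or wild-type-only replicate 3.

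ZNF711 on chromosome X was 3.09-fold higher, with 8.05, 8.07 and 7.88 in mutant-only cells, against 6.28, 6.45 and 6.38 in wild-type-only cells. The opposite change was found for ZNF426 (8033780) on chromosome 19, which had 6.04, 5.80 and 5.92 in mutant-only cells, against 7.46, 7.5 and 7.60 in wild-type-only cells (3.05-fold lower, adjusted p = 5.55e-08). ZNF280A on chromosome 22 had 6.16, 6.05 and 6.07 in mutant-only cells and 7.24, 7.29 and 7.27 in wild-type-only cells, 2.26-fold lower in mutant-only cells. Its neighbour ZNF280B did not pass (change -0.10, adjusted p = 0.476). Neighbours called beside the others are named after their values were seen. Beside ZNF711, APOOL was higher by 0.23 (adjusted p = 0.0214). Beside ZNF426, ZNF266 was lower by 0.28 (adjusted p = 0.0117), whereas ZNF699 was higher by 0.27 (adjusted p = 0.0307) and ZNF561 by 0.45 (adjusted p = 0.00305).

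Genes known to respond to cyclic AMP and CREB had the highest called share of the lists described. The list was made with earlier results of these data known, so its share and rank carry no test. CREB is the transcription factor that protein kinase A activates, and its targets include immediate early genes and secreted neuropeptides. Of 22 measured genes 2 rose and 6 fell, 36.4% beside 6.16% of all genes, with a median change of -0.02. The count was 6 to 7 when 1 HCT116 array was left out. The members moved both ways: BDNF (7947230), a neurotrophin, and RGS2 were higher, and SCG2 (8059345), a secretogranin of dense-core vesicles, and NR4A2 (8055952), an immediate early nuclear receptor, were lower. BDNF had 9.35, 9.30 and 9.15 in mutant-only cells, against 7.29, 7.22 and 7.15 in wild-type-only cells. SCG2 had 7.92, 8.11 and 8.07 in mutant-only cells, against 10.16, 10.32 and 10.42 in wild-type-only cells. NR4A2 had 9.06, 8.99 and 9.33 in mutant-only cells, against 11.37, 10.97 and 11.31 in wild-type-only cells. None of the 3 genes overlapped, which largely follows from naming them as leading called changes. NR4A1, a relative of NR4A2, was lower by less, at 8.35 ± 0.10 against 8.78 ± 0.12 (SD, n = 3, adjusted p = 0.00678). NR4A3 did not pass (change 0.00, adjusted p = 0.986). CREM, PPARGC1A, PCK1 and SST did not pass either, with changes of -0.01, 0.02, -0.10 and 0.15.

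The letters of the cAMP response element, TGACGTCA, which read the same on both strands, were searched in RefSeq promoters of GRCh38.p14 from 250 bases before to 50 after the gene's start. They stood in 2.81% of 604 promoters of genes called higher, 3.81% of 315 of genes called lower and 2.65% of all 14208 promoters matched. Of the 22 genes of the cAMP list 17 had a promoter in the table and 3 held the element, namely DUSP1, SST and VGF, which were not called. The called members NR4A2, SCG2 and PLAT were not in the table, and the other 5 called did not hold it. Among the called genes named here it stood before EPHA2, which was higher, and before GPR3 and ZNF426, which were lower. A variant, TGACGCAA, searched on both strands, stood in 1.32% of promoters of genes called higher, 1.27% of those called lower and 0.746% of all, and before ZNF566. The 250 bases before the start are shown for these 4 genes, with the element or variant in capitals: ZNF426 chr19:9538646-9538895 (minus strand), EPHA2 chr1:16156070-16156319 (minus strand), GPR3 chr1:27392372-27392621 (plus strand) and ZNF566 chr19:36489562-36489811 (minus strand).
ZNF426: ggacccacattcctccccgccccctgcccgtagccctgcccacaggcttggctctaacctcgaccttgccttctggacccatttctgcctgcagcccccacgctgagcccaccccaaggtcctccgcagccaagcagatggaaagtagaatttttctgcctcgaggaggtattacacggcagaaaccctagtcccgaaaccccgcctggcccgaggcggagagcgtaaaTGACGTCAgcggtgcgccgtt
EPHA2: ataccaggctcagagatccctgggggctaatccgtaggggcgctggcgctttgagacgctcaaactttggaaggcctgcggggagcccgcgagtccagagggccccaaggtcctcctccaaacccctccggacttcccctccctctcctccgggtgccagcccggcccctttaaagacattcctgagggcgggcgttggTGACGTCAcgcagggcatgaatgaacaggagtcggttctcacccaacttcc
GPR3: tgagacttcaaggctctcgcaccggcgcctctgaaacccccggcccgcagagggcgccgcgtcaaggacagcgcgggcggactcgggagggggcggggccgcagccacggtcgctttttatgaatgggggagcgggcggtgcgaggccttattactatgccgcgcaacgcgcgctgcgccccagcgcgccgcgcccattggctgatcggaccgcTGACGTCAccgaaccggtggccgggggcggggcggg
ZNF566: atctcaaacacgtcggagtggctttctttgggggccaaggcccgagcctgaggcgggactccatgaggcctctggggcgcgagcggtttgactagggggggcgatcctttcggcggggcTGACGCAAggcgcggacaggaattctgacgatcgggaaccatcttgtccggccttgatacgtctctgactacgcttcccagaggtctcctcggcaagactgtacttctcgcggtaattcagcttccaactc
The element lay 21 bases before the start of ZNF426, 51 before that of EPHA2 and 36 before that of GPR3, counted from its first base.

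Of the other motifs searched on both strands, the ETS letters CCGGAAGT stood in 6.29% of promoters of genes called higher, 2.86% of those called lower and 6.38% of all. The inverted CCAAT letters ATTGG stood in 37.9%, 27.9% and 36.3%. The shares were 3.31%, 3.49% and 3.55% for the AP-1 letters TGACTCA, 2.65%, 2.86% and 2.46% for the forkhead letters GTAAACA, and 9.44%, 8.25% and 8.88% for the E-box CACGTG, each over genes called higher, genes called lower and all. The NR4A letters AAAGGTCA stood in 0.497%, 0.635% and 0.887%. The genes with lower signal in mutant-only cells thus held the ETS and CCAAT letters less often than all genes in this window, as a description with no test. A match of letters is not a binding site.

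Nuclear receptors, which bind lipids and hormones and act on DNA, were called at 8 of 39 measured genes, 4 higher and 4 lower. That is 20.5%, beside 6.16% of all genes, and the count was 5 without mutant-only replicate 1. PPARG, a fatty acid sensor of the gut and fat, had 10.33, 10.16 and 10.23 in mutant-only cells, against 9.57, 9.63 and 9.57 in wild-type-only cells (1.57-fold, adjusted p = 1.52e-05). NR2F1, an orphan receptor of development, had 11.40, 11.39 and 11.47 in mutant-only cells and 10.65, 10.76 and 11.09 in wild-type-only cells, the wild-type-only arrays being the more spread. Kruppel-like factors were called at 4 of 17 (23.5%). KLF11 was higher by 0.74 (adjusted p = 0.000300), with 9.40, 9.65 and 9.56 in mutant-only cells, against 8.65, 8.92 and 8.81 in wild-type-only cells. KLF7 was lower by 0.52, at 9.85 ± 0.02 in mutant-only and 10.36 ± 0.16 in wild-type-only cells, and KLF12 by 0.51, at 7.78 ± 0.05 in mutant-only and 8.29 ± 0.18 in wild-type-only cells (SD, n = 3).

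Chromatin remodellers of the SWI/SNF and chromodomain families had 5 of 31 members higher and none lower, with a median change of 0.08. That is 16.1% called, beside 6.16% of all genes. The count of called remodellers was 3 without mutant-only replicate 3, wild-type-only replicate 1 or wild-type-only replicate 3. CHD9 had 9.65, 9.77 and 9.71 in mutant-only cells, against 8.69, 8.93 and 8.91 in wild-type-only cells (1.83-fold, adjusted p = 4.02e-06). SMARCD1, a subunit that links the complex to transcription factors, was higher by 0.32 (adjusted p = 0.00302). Polycomb and DNA methylation genes were called at 2 higher and 2 lower of 27 (14.8%). The count was 2 without wild-type-only replicate 3 and 7 with the replicate number as a block. TET2, which oxidises methylated cytosine, was higher by 0.34, and another probe set of the gene by 0.17. CBX6, a chromobox protein of the repressive complex, was higher by 0.30.

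Families of surface ligands and receptors lay on both sides of the background of 6.16%. Chemokines, interleukins, fibroblast growth factors and the WNT and frizzled genes, each with their receptors, were called at 1.89%, 3.57%, 3.57% and 3.45%. Median levels in mutant-only cells were 6.29 for chemokine and 6.59 for interleukin genes. These lie in signal groups 1 and 2, where 1.31% and 3.67% of all genes were called. The levels of the other 2 families, 7.65 and 8.01, lie in signal group 3, where 7.21% were called. TNF ligands and receptors had 6 of 28 higher and 1 lower (25%), and 4 called without wild-type-only replicate 1. TNFRSF21, a death domain receptor, had 11.02, 10.75 and 11.09 in mutant-only cells, against 10.55, 10.17 and 10.50 in wild-type-only cells (adjusted p = 0.00516), with replicate 2 lowest in both. Ephrins and their receptors had 3 of 21 higher and 1 lower (19%). EFNB2, an ephrin ligand, had 9.45, 9.27 and 9.21 in mutant-only cells, against 8.62, 8.64 and 8.46 in wild-type-only cells (1.67-fold, adjusted p = 8.44e-05). EPHA2, an ephrin receptor kinase, had 10.06, 9.89 and 10.11 in mutant-only cells, against 9.55, 9.62 and 9.66 in wild-type-only cells (1.33-fold, adjusted p = 0.000971). Neither overlapped between genotypes, and nor did 22% of all genes. Both were named as leading called rises, so their separation largely follows from that choice.

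Axon guidance cues of the semaphorin group, with their plexin and neuropilin receptors, had 5 of 30 members higher and 1 lower (20%, beside 6.16% of all genes). The ligand SEMA3A had 8.56, 8.21 and 8.32 in mutant-only cells, against 7.39, 7.32 and 7.46 in wild-type-only cells (1.97-fold, adjusted p = 9.01e-06). Its co-receptor NRP1 was higher by 0.48, at 6.97 ± 0.11 against 6.50 ± 0.07 (SD, n = 3). PLXND1, a plexin receptor, had 8.01, 8.02 and 8.15 in mutant-only cells and 8.59, 8.68 and 8.66 in wild-type-only cells, 1.5-fold lower in mutant-only cells (adjusted p = 0.000130). Ligand and co-receptor were thus called higher and this plexin lower. Orphan and adhesion G protein-coupled receptors had 7 of 100 higher and 4 lower (11%). GPR39, a zinc-sensing receptor, had 8.97, 8.70 and 8.66 in mutant-only cells, against 7.84, 7.94 and 8.12 in wild-type-only cells (adjusted p = 0.000105). GPR3, a receptor that raises cyclic AMP without a ligand, was lower by 0.30 (adjusted p = 0.0101).

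Adhesion and cell shape genes were called in smaller sets. Of 10 laminins 2 were higher and 1 lower (30%), beside 6.16% of all genes called. LAMB1, a chain of basement membrane laminins, had 10.38, 10.16 and 10.33 in mutant-only cells, against 9.59, 9.61 and 9.71 in wild-type-only cells (1.57-fold, adjusted p = 1.84e-05), and LAMA4 was lower by 0.35. Actin regulators of protrusion had 3 higher and 2 lower of 34 (14.7%), with 3 called when any single array but mutant-only replicate 2 was omitted. WASF3, which starts actin branching, had 7.90, 8.09 and 8.09 in mutant-only cells, against 7.33, 7.19 and 7.39 in wild-type-only cells (adjusted p = 2.13e-05). SSH1, a phosphatase that activates cofilin, had 8.72, 8.70 and 8.80 in mutant-only cells and 9.39, 9.45 and 9.45 in wild-type-only cells, 1.61-fold lower in mutant-only cells. Both genes separated the genotypes, in opposite directions, which largely follows from naming them as leading called changes each way.

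Of 16 receptor tyrosine phosphatases 2 were higher and 1 lower (18.8%), beside 6.16% of all genes called. PTPRK had 9.77, 9.63 and 9.77 in mutant-only cells, against 9.16, 9.14 and 9.26 in wild-type-only cells (adjusted p = 8.70e-05). PTPRR, which inactivates ERK, had 6.0, 6.19 and 5.98 in mutant-only cells and 6.89, 6.70 and 6.73 in wild-type-only cells, 1.65-fold lower in mutant-only cells. Of 22 tetraspanins 5 were higher (22.7%), among them TSPAN7 by 0.52, and 2 or 3 were called without any single array except mutant-only replicate 2. Integrins, sorting nexins and subunits of RNA polymerase and mediator had 4 calls each, over 29, 30 and 31 members (13.8%, 13.3% and 12.9%). The polymerase and mediator subunits had 7 with the block. These counts were 1 to 4, 2 and 0 to 2 when 1 array was left out, and ITGA5, a fibronectin receptor chain (change 0.29), and SNX14 (change -0.30) kept their calls.

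Metabolic groups ranged from no call to above the background of 6.16%. TCA cycle and pyruvate enzymes had 3 of 26 higher and 1 lower (15.4%), with a median change of 0.14, and 1 call without mutant-only replicate 1 and 2 without wild-type-only replicate 2. SUCLG2, a succinyl-CoA ligase subunit, was higher by 0.36 (adjusted p = 0.00866). In fatty acid oxidation 3 of 24 were higher and 1 lower (16.7%): ECHS1 and CPT2, both of mitochondrial oxidation, were higher by 0.31 and 0.27, and ACADM, the medium-chain dehydrogenase, was lower by 0.31. In phospholipid and triglyceride synthesis 3 of 25 were higher and 1 lower (16%), with 8 called under the block and 2 without mutant-only replicate 1. LPIN1, a phosphatidate phosphatase, had 9.15, 9.15 and 9.14 in mutant-only cells, against 8.71, 8.72 and 8.71 in wild-type-only cells (1.35-fold, adjusted p = 0.000300). CDS1, which uses the same substrate to make the precursor of phosphatidylinositol, was lower by 0.36 (adjusted p = 0.00595). LPIN1 thus changed little in size but stood well outside the spread of its replicates.

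Solute carriers were called at 14 higher and 17 lower of 385 (8.05%), close to the share of all genes, and at 17 without mutant-only replicate 1 and 18 without wild-type-only replicate 3. SLC23A2, a vitamin C transporter, had 8.75, 8.84 and 8.73 in mutant-only cells, against 8.07, 8.13 and 7.95 in wild-type-only cells (adjusted p = 4.10e-05). SLC44A5 was higher by 0.67, and the glutamate transporters SLC1A1 and SLC1A3 were lower by 1.08 and 0.53. Of coagulation and fibrinolysis genes 2 of 26 were higher and 2 lower (15.4%), beside 6.16% of all genes called. F3, the tissue factor that starts clotting, was higher by 0.44 (adjusted p = 0.000573). F10, the factor X that it helps to activate, had 8.59, 8.40 and 8.34 in mutant-only cells and 9.06, 9.29 and 9.09 in wild-type-only cells, 1.63-fold lower in mutant-only cells (adjusted p = 0.000235).

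Several large housekeeping groups held no call in limma, and others held a few. None of 64 cytosolic ribosomal proteins, 62 translation factors, 64 splicing factors, 47 proteasome subunits or 25 vacuolar ATPase subunits was called, with median changes of -0.03, 0.00, 0.04, 0.04 and -0.01. Unadjusted p-values under 0.05 were found for 3, 10, 7, 2 and 6 of them in that order, beside 18.5% of all genes, and the block called 1, 2, 1, 1 and 2. Ribosomal and proteasomal genes thus had fewer small p-values than the array at large, and the vacuolar ATPase had 24%. Of 74 mitochondrial ribosomal proteins 3 were higher and 2 lower (6.76%, near the 6.16% of all genes called). Of 42 complex I genes 2 were higher (4.76%), as were 2 of 56 other respiratory chain and ATP synthase genes (3.57%). With the block 6 mitochondrial ribosomal proteins were higher and 3 lower, and 4 complex I genes were higher. Homologous recombination and Fanconi genes also had no call among 25 measured, but 9 had an unadjusted p under 0.05 and 3 were called with the block.

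Regulatory and metabolic groups without a call were 18 histone deacetylases and sirtuins, 13 IRF and STAT factors, 31 G protein subunits, 18 cyclases, 28 glutathione enzymes, 22 genes of pentose phosphate and nucleotide synthesis and 16 of glutamine, proline and polyamine metabolism. Between 0 and 4 members of each had an unadjusted p under 0.05, and the block called 0 to 2. Other families with few calls included several of low signal, and the histones, whose median level of 8.04 in mutant-only and 7.98 in wild-type-only cells lay near the 8.122 and 8.105 of all genes. Among 359 olfactory receptors 1 was called (5 with the block), as were 1 of 67 histones (5 with the block), 1 of 53 keratins (2 with the block), 1 of 53 chemokines and their receptors (3 with the block) and 1 of 68 MMP and ADAM proteases. Called shares of these families were 0.279% to 1.89%, beside 6.16% of all genes. The median levels of olfactory receptors and chemokine genes lie in signal group 1, where 1.31% of all genes were called. Those of keratins and of MMP and ADAM proteases lie in group 2, where 3.67% were. The histone level lies in group 3, where 7.21% were. When 1 array was left out, 0 to 1 keratins, 0 to 2 chemokine genes, 1 to 2 olfactory receptors and 1 to 3 histones were called. None of 26 taste receptors, 40 cancer-testis antigens, 17 GABA receptors, 20 acetylcholine receptors and 15 connexins was called. Each of these families had 0 to 3 unadjusted p-values under 0.05 and 0 to 1 calls with the block. The median levels of the first 3 lie in signal group 1, and those of acetylcholine receptors and connexins in group 2.

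Short and noncoding RNA genes were seldom called. Grouped by symbol, their median level in mutant-only cells was 5.92 for microRNA, 6.70 for long intergenic and antisense and 7.56 for small nucleolar RNA genes. These levels lie in signal groups 1 and 2, where 1.31% and 3.67% of all genes were called. The comparison with protein-coding genes was not matched for signal. By annotated gene type the called share was 1.43% of 631 long noncoding RNA genes, none of 175 small nucleolar RNA genes and 0.578% of 173 microRNA genes. It was 6.58% of 16865 protein-coding genes. Of the small nucleolar RNA genes 4 had an unadjusted p under 0.05. With the replicate number as a block 13 small nucleolar and 7 microRNA genes were called, all lower, and their medians were -0.06 and -0.03. MIR31HG, the host transcript of a microRNA, had 7.28, 7.08 and 7.47 in mutant-only cells, against 6.53, 6.24 and 6.74 in wild-type-only cells (1.71-fold, adjusted p = 0.00263). Replicate 2 was lowest in both genotypes. The genotypes did not overlap, which largely follows from naming the gene for its called change. Arrays of this kind read such transcripts from total RNA prepared for long transcripts.

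**Figure D2:**
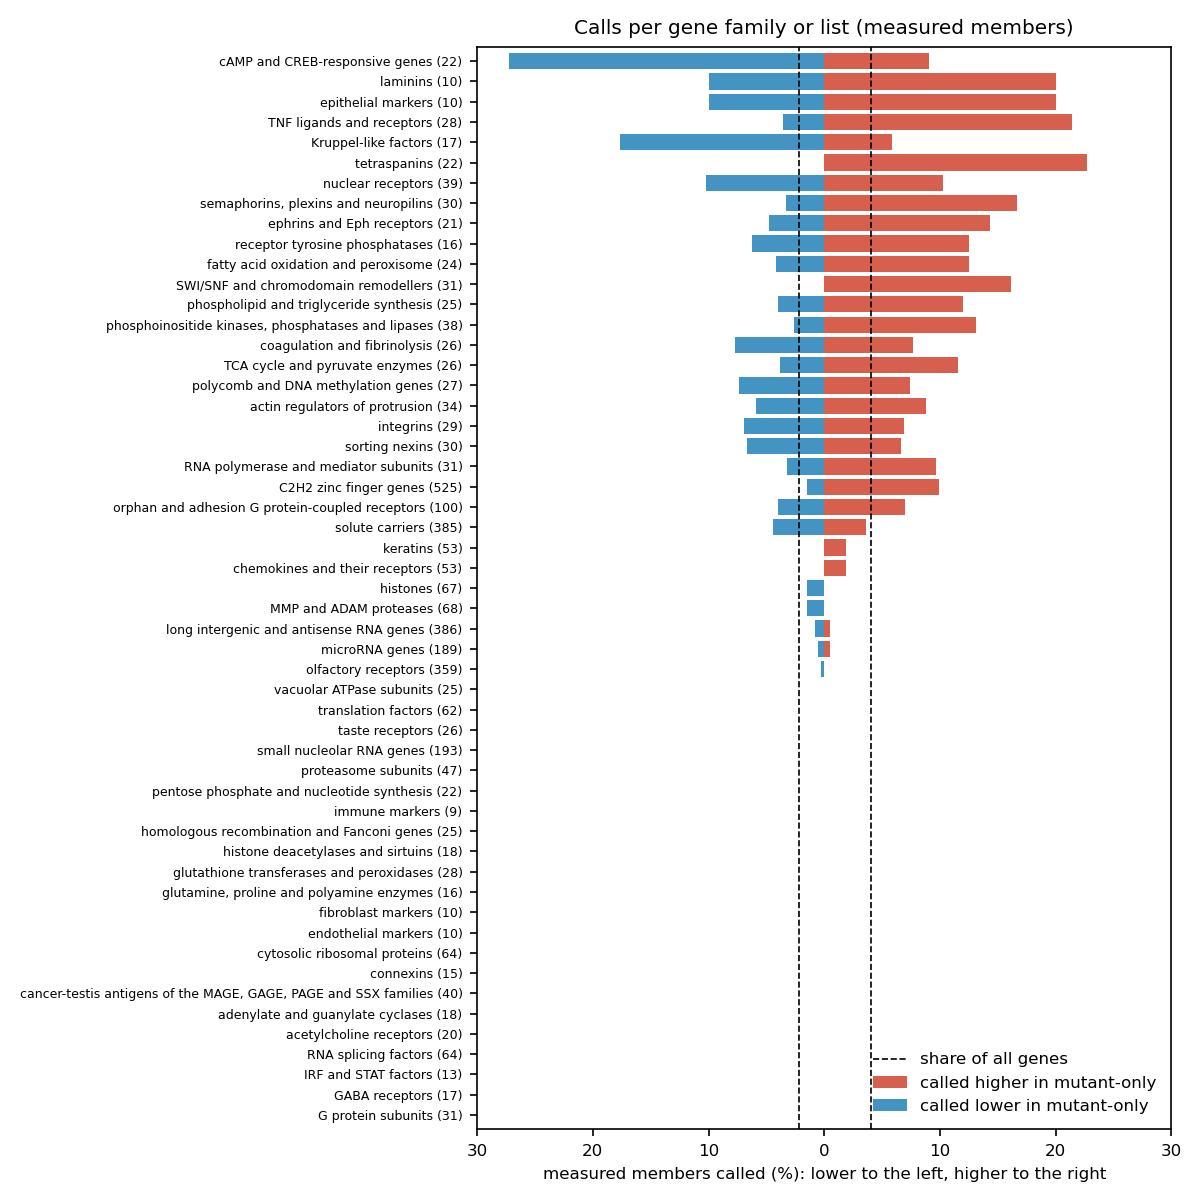
Share of measured members called lower (left) and higher (right) in mutant-only HCT116 cells for each described gene family or list, with the number of measured members in parentheses. The dashed lines mark the shares of all genes, 2.14% lower and 4.02% higher; the cAMP list reaches farthest to the left and tetraspanins farthest to the right, and families without a bar had no call.

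Calls and changes depended on the signal level. In signal groups 1 to 5 1.31%, 3.67%, 7.21%, 9.69% and 8.92% of genes were called. The calls went higher and lower at 26 and 22 genes in group 1, 76 and 59 in group 2, 169 and 96 in group 3, 256 and 100 in group 4 and 211 and 117 in group 5. The median size of a called change was 0.37, 0.39, 0.35, 0.32 and 0.30. Changes of at least 2-fold were found for 3, 7, 14, 9 and 5 genes. The median residual SD was 0.07 to 0.09 in every group.

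The median change of all genes also followed the level. It was -0.01, -0.03 and -0.01 in groups 1 to 3 and 0.04 and 0.03 in groups 4 and 5. After quantile normalization the medians were -0.000594, -0.01, -0.02, 0.00233 and 0.00727. One array stood apart in this respect. Wild-type-only replicate 1 deviated by 0.04 from the mean of the 6 arrays in group 2 and by -0.05 in group 4, in the median over genes. Without it the medians of groups 2 and 4 were -0.02 and 0.02. The median of group 3 was 0.001241 when mutant-only replicate 2 was omitted and 0.002639 when wild-type-only replicate 3 was. The part of that array in the excess of higher calls was not tested.

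**Figure D3:**
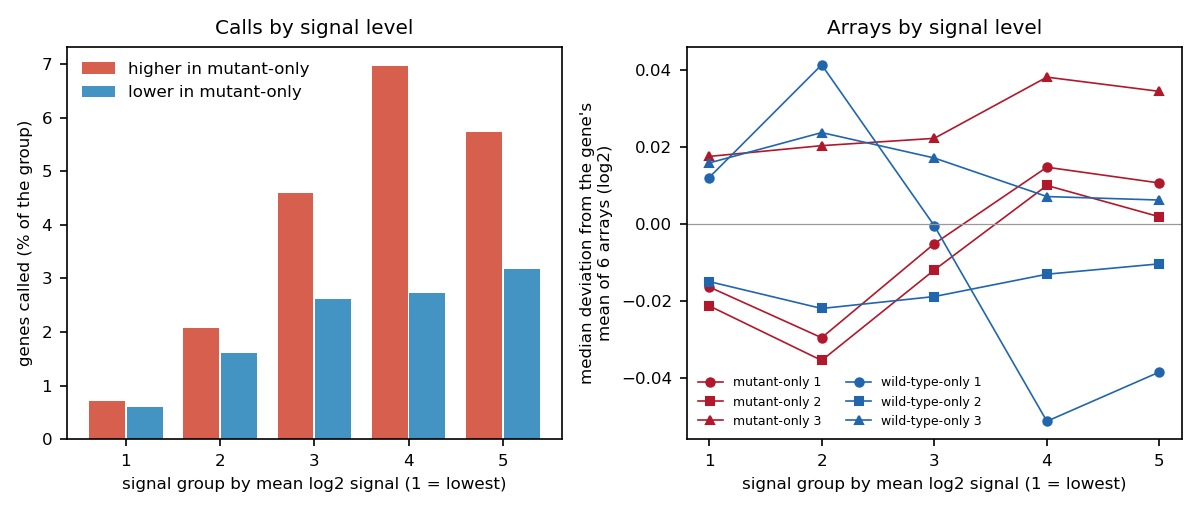
Left, percentage of genes called higher and lower in mutant-only HCT116 cells in each of 5 equal groups by mean log2 signal. Right, median deviation of each of the 6 arrays from the mean of each gene, by signal group; wild-type-only replicate 1 runs between 0.0413 in group 2 and -0.0513 in group 4, farther than any other array.

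The leading rises were 2.28 to 0.93 in signal group 5 and 1.25 to 0.74 in signal group 1. These ranges do not compare the groups, since they top 211 higher calls in group 5 and 26 in group 1. The median size of a called change was 0.30 in group 5 and 0.37 in group 1. The groups also rest on the mean signal over all 12 arrays, DLD1 included. In signal group 5 the leading rises were EHF, an epithelial ETS factor, at 10.00 ± 0.22 in mutant-only and 7.72 ± 0.17 in wild-type-only cells (SD, n = 3), NETO2, an auxiliary subunit of glutamate receptors (change 1.44), IGF2BP3 and ADGRF1, an adhesion receptor. ADGRF1 had 11.76, 11.87 and 11.93 in mutant-only cells, against 10.72, 11.01 and 11.03 in wild-type-only cells (adjusted p = 0.000573). In signal group 1 PRKAA2 led with a change of 1.25. B3GALT1, a galactosyltransferase, had 6.46, 6.72 and 6.30 in mutant-only cells, against 5.54, 5.64 and 5.71 in wild-type-only cells (adjusted p = 7.89e-05). ABCA12, a lipid transporter of the skin barrier, had 6.65, 6.47 and 6.80 in mutant-only cells, against 5.92, 5.90 and 5.90 in wild-type-only cells. SPARCL1, a matrix protein, was higher by 0.75. TCN1, a vitamin B carrier, had 5.72, 5.71 and 5.86 in mutant-only cells and 6.79, 6.66 and 6.38 in wild-type-only cells, 1.80-fold lower in mutant-only cells. The genotypes did not overlap for these dim genes, nor for 11.6% of all genes of signal group 1. The dim genes were picked as the largest called changes there, so their separation largely follows from that choice. How near background they lay was not assessed.

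No chromosome stood far from the rest. Chromosome medians ran from -0.02 on chromosome 13, with 5 genes higher and 16 lower of 316, to 0.01 on chromosome 22, with 28 higher and 7 lower of 421. With the replicate number as a block chromosome 13 had 10 higher and 23 lower, and chromosome 22 had 35 higher and 13 lower. Without the block the called share was 3.4% on chromosome 21 and 8.69% on chromosome 10. In windows of 20 neighbouring measured genes the medians ran from -0.11 to 0.15. The highest window, on chromosome 11 from ATP5MG to VPS11, had 6 genes higher and none lower, and its arrays averaged 0.05 to 0.08 above the gene means in mutant-only and 0.05 to 0.07 below in wild-type-only cells. PHLDB1 led it, higher by 0.38 (adjusted p = 0.00595), and the calls of its other 5 genes were each lost without at least 1 array. The lowest window, on chromosome 1 from ANKRD45 to TNR, had 1 call, KIAA0040, lower by 0.53 (adjusted p = 0.00212).

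Called genes that lay together did not always move together. On chromosome 2, in the window from CCDC141 to CALCRL with a median of -0.09, SESTD1 was higher by 0.75, with 9.60, 9.86 and 9.64 in mutant-only cells, against 8.87, 8.98 and 9.01 in wild-type-only cells. In the same window CERKL, a ceramide kinase-like protein, was lower by 0.58 and CALCRL, a receptor for the peptide CGRP, by 0.64. CALCRL had 6.59, 6.62 and 6.15 in mutant-only cells, against 6.95, 7.19 and 7.13 in wild-type-only cells, and CERKL was 6.47 ± 0.05 in mutant-only and 7.05 ± 0.08 in wild-type-only cells (SD, n = 3). In the histone window of chromosome 6 the histone H3 gene H3C11 was lower by 0.35 (adjusted p = 0.00388) while the window median was 0.11.

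**Figure D4:**
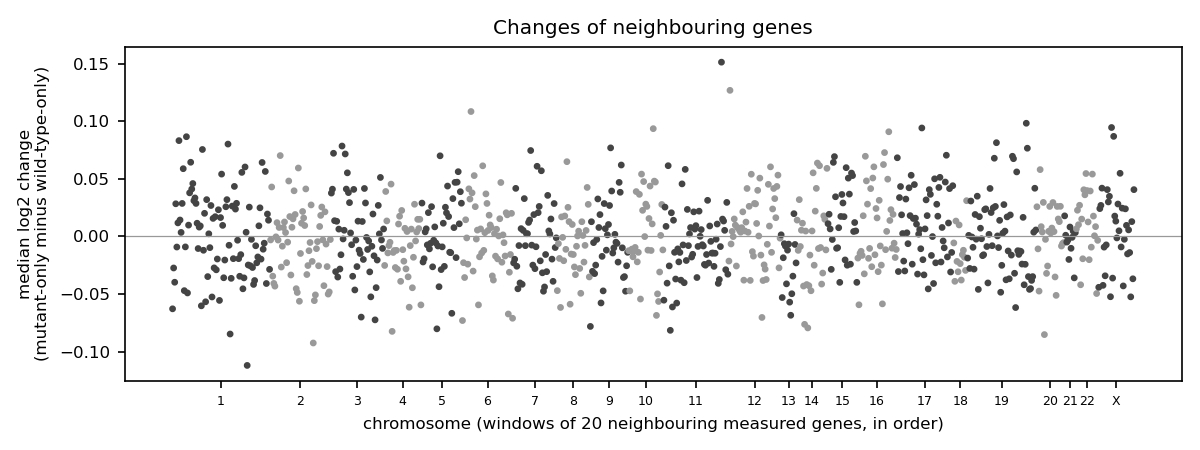
Median log2 change (mutant-only minus wild-type-only) in consecutive windows of 20 measured genes along each chromosome, in gene order and not to distance; shades alternate by chromosome. The windows lie between -0.1121 and 0.1515, with no run of raised or lowered windows over a whole chromosome.

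The HCT116 changes were set against those of DLD1 by testing the difference of the changes in the same model, which called 7.11% of all genes. Of the HCT116 calls 558, or 49.3%, had a called difference. Of 907 HCT116 calls that were not called in DLD1, 441 did, and the other calls were not shown to differ between the lines. A further 225 genes were called in both lines, 19.9% of the HCT116 calls and 14% of the DLD1 calls. Over all 18377 genes 1612 were called in DLD1. Of the 225 genes, 131 changed in the same direction and 94 in opposite directions. Their levels differ between the lines, which share no array, and line and mutant allele cannot be told apart in this comparison. With the replicate number as a block the difference was called for 2077 genes, and without the arrays numbered 1 or 2 of all groups for 277 or 571.

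Among the named genes with opposite calls, ADGRF1 was higher by 0.93 in HCT116 and lower by 1.01 in DLD1 (difference 1.94, adjusted p = 1.87e-05). RHOU was higher by 0.83 in HCT116 and lower by 0.68 in DLD1, and EFNB2 higher by 0.74 in HCT116 and lower by 0.48 in DLD1. In the other direction PTPRR was lower by 0.72 in HCT116 and higher by 0.72 in DLD1 (difference -1.44, adjusted p = 2.16e-06), and BMAL1 lower by 0.95 in HCT116 and higher by 0.65 in DLD1. ZNF850 was higher by 1.13 in HCT116 and lower by 0.32 in DLD1. For each of these genes the difference was called, as it was for all 94 genes with opposite calls. That follows from the choice of opposite calls and adds no support. PPARG was alike in size, higher by 0.65 in HCT116 and 0.64 in DLD1 (difference 0.01, SE 0.0822, not called), and SLC1A3 was lower by 0.53 in HCT116 and 0.68 in DLD1. Among genes not called in DLD1, the differences were highest for BDNF (1.88), PXDN, a peroxidase of the matrix (1.62), TNFSF18 and FABP6. They were lowest for GPR15, a chemoattractant receptor (-2.39), NR4A2, SCG2 and NAV3, a cytoskeletal protein (-1.89).

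**Figure D5:**
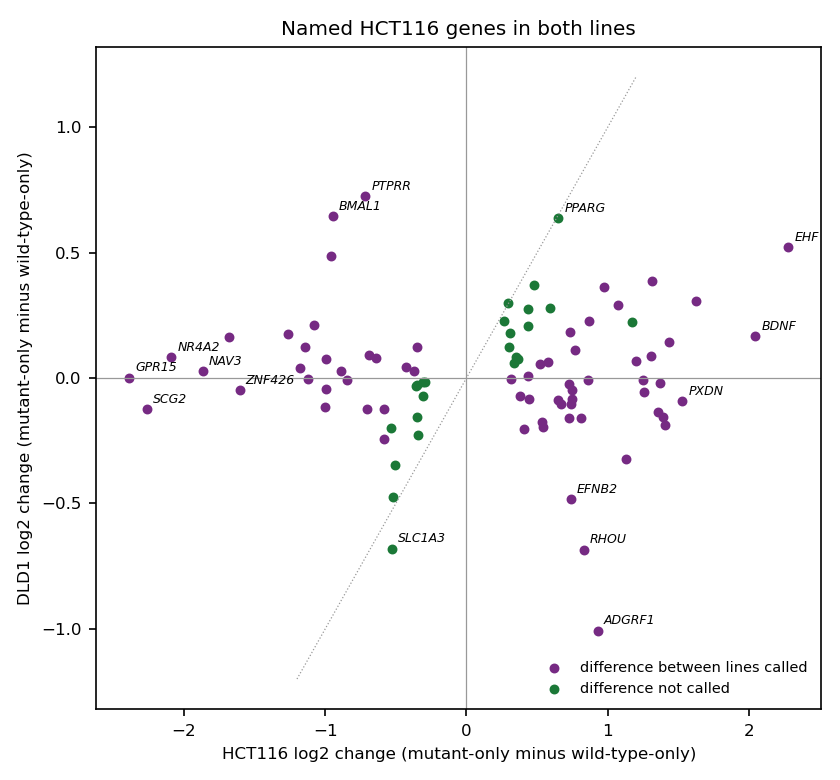
Log2 change (mutant-only minus wild-type-only) in HCT116 against that in DLD1 for the named genes whose HCT116 call held without each HCT116 array; each point is 1 gene, and the dotted line marks equal changes. ADGRF1, RHOU and EFNB2 lie in the lower right, PTPRR and BMAL1 in the upper left, and PPARG near the line of equal changes.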

How the data were processed

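Total RNA of each sample was labelled from 500 ng and hybridised, per the labels' protocols. The authors deposited log2 values for 28869 transcript clusters on 12 arrays, used here as they stand. How they were background-corrected, summarised and normalized is not given in the sources used here. All per-sample columns matched a sample label. Whether a signal lay above background was not assessed, and precision is limited by the number of arrays.

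The platform annotation gave 1 symbol to 19310 clusters, several to 1752 and none to 7807; 18349 of 18377 genes matched NCBI's gene table for GRCh38.p14, used for names and gene order. The targeted gene's own transcript and 1 gene group are not reported here. For 685 genes several clusters were present, and the one with the highest mean was used.

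Group means were fitted with lmFit and eBayes of limma 3.58.1 (R 4.3.3; 8 residual and 5.17 prior degrees of freedom; two-sided p-values adjusted by Benjamini-Hochberg over all genes), which was tested on simulated data. Same-numbered arrays of the genotypes deviated together, with correlations of 0.306, 0.424 and 0.462, above the minimum of 0.1. For different numbers the correlations were -0.321 to -0.0374. A fit with the number as a block was therefore also run. Its counts are given for many groups but not for all, and some counts given without it move by over 1.5 times. Alternatives were quantile normalization, median centring, averaging a gene's clusters, leaving out the 40% of genes with the lowest signal, the HCT116 arrays alone, the block and leaving out each array.

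The gene groups were 83 symbol patterns and 26 lists, with 609 of 672 listed genes measured. The members and lists were chosen with earlier results of these data known, so counts carry no test and are set beside those of all genes. Described were groups with at least 5 measured members and a called share of at least 2 times or at most 1/3 of the background, or at least 8 calls. Named were the 9th to 20th rises and falls with genotypes that did not overlap, up to 2 called members per group and direction, the 4 largest rises and falls of the highest and lowest of 5 groups by mean signal, the called genes of the 3 highest and 3 lowest windows, and the 4 highest and 4 lowest differences between lines among genes not called in DLD1. Of the 129 genes so named, 92 kept their call without each HCT116 array; values are given for most of these, and the other 37 are only counted. Members named as not passing, and genes said to be chosen after their values were seen, fall outside the rule.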

Additional observations from a re-analysis of the deposited data

Results flagged for a closer look

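Each of the following genes was named by the rule given under the processing, was called in HCT116 and was picked out because the test of the difference between the HCT116 and DLD1 changes was called in limma. Values are that difference on the log2 scale, the HCT116 change minus the DLD1 change, and genes outside the naming rule are not ranked: ZNF675 (1.98) and GALNT5 (-2.36), chosen after their values were seen, would stand near the ends. Among the named genes higher in mutant-only HCT116 cells the largest were ADGRF1 (1.94), BDNF (1.88), EHF (1.76), PXDN (1.62), TNFSF18 (1.6), FABP6 (1.55), RHOU (1.52), ZNF136 (1.49), ZNF850 (1.45), ZNF566 (1.39), ZNF711 (1.32) and PRKAA2 (1.31). A middle tier held NETO2 (1.29), LRIG1 (1.25), EFNB2 (1.22), IGF2BP3 (1.22), ZC4H2 (1.13), GPR39 (0.969), PIK3R3 (0.93), WASF3 (0.884), B3GALT1 (0.866), KLF11 (0.848), SESTD1 (0.832), SPARCL1 (0.798), RGS2 (0.783) and SLC44A5 (0.77). Smaller differences were found for SLC23A2 (0.746), LAMB1 (0.739), TNFRSF21 (0.739), PTPRK (0.71), MIR31HG (0.659), CHD9 (0.64), SEMA3A (0.614), EPHA2 (0.611), ABCA12 (0.554), F3 (0.525), RASGRP1 (0.511), TSPAN7 (0.465), PHLDB1 (0.45), OCRL (0.43) and SMARCD1 (0.322).

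Among the named genes lower in mutant-only HCT116 cells, the differences were GPR15 (-2.39), NR4A2 (-2.17), SCG2 (-2.14), NAV3 (-1.89), PLAT (-1.84), BMAL1 (-1.59), ZNF426 (-1.56), VSNL1 (-1.44), PTPRR (-1.44), FAR2 (-1.44), SLC1A1 (-1.29), NT5E (-1.27) and ZNF280A (-1.22) at the far end. They were ANKRD29 (-1.12), MEF2C (-1.07), MOSPD1 (-0.954), ACSL5 (-0.916), SYTL5 (-0.887), TCN1 (-0.84), SSH1 (-0.781), CALCRL (-0.715), F10 (-0.579), H3C11 (-0.472), NR4A1 (-0.471), PLXND1 (-0.457), PIP4K2A (-0.4) and CERKL (-0.339) for the others. ADGRF1, RHOU, EFNB2, ZNF850, PTPRR and BMAL1 were called in opposite directions in DLD1, as was SLC1A1, whose DLD1 change was 0.21. Some flagged genes were called in the same direction in DLD1 with a smaller change, such as EHF (0.52), PIK3R3 (0.39), ZNF711 (0.31) and CERKL (-0.24). The causes of these differences were not tested.

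Transcript clusters with several symbols or none were outside the gene-level comparison. Of 9559 such clusters 140 were called in HCT116, 58 higher and 82 lower, and 6 of them changed at least 2-fold. Cluster 7898570 had 13.54, 13.38 and 12.97 on the mutant-only arrays, against 10.97, 10.83 and 10.28 on the wild-type-only arrays (6.07-fold higher, adjusted p = 5.94e-05 in limma). Cluster 8135069 had 8.63, 8.64 and 8.51 in mutant-only cells and 11.03, 10.09 and 10.35 in wild-type-only cells, 3.73-fold lower in mutant-only cells. Neither has 1 gene symbol in the annotation used here.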

How the results depend on the processing

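With the replicate number as a block the count of HCT116 calls was 1808 (1185 higher, 623 lower), and the difference between lines was called for 2077 genes. In a model of only the 6 HCT116 arrays 665 genes were called (412 higher, 253 lower). Leaving out single arrays, or the arrays of one number in all groups, gave 231 to 932 calls, 126 to 650 higher and 105 to 330 lower, 35 to 42 genes with a change of at least 2-fold, and 277 to 1181 called differences. Quantile normalization, median centring, the mean of all clusters and the filter on dim genes kept every one of these counts within 1.5 times. The balance of directions did move. Beside 738 higher and 394 lower calls in the main fit, quantile normalization gave 672 and 514, and median centring 614 and 476. The mean of all clusters gave 736 and 399, and the filter on dim genes 718 and 347. Median changes in signal groups 1 to 5, from lowest to highest, ran from -0.02485 to -0.003361, -0.05069 to -0.01803, -0.01311 to 0.002639, 0.02141 to 0.04731 and 0.01359 to 0.03826 when 1 array was left out, a range added after the data were seen. Median centring gave -0.02414 in group 3, and quantile normalization 0.002331 in group 4. No named gene changed direction in any alternative. Of the 129 genes named by the rule, 30 lost their call with the HCT116 arrays alone, 7 under median centring, 5 under quantile normalization and 1 with the mean of all clusters. The causes were not tested. The block ended no call of a gene given with values here.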
